A study of Mus musculus with 6 samples.

Results

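The genes described here are 41 genes of DNA replication and S phase, taken from a fixed list by their GENCODE M21 symbols, out of 23154 gene IDs counted in each library and 12509 that had enough reads to be tested. All 41 passed that filter, from Orc1 with 118 reads over the 6 libraries to Rrm1 with 13227. Their transcripts were measured by RNA-seq in C2C12 cells, an established line of mouse muscle precursors (myoblasts) that stop dividing and fuse when they differentiate. The study's title concerns the nuclear receptor Nur77, which is encoded by Nr4a1, and the libraries compared cells carrying HA-tagged NUR77 with cells carrying GFP. Both groups were stable lines made with the doxycycline-inducible pINDUCER20b vector, 1 line per construct (pINDUCER20b-HA-NUR77 or pINDUCER20b-GFP), and both received doxycycline at 1 µg/mL for 18 hours, begun 24 hours after seeding in medium with 10% serum. Each group had 3 replicates, each from one 10 cm dish, so the spread between replicates is the spread between dishes of one line, and the construct and the line that carries it cannot be told apart.

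DNA replication starts in G1, when the origin recognition complex, Cdc6 and Cdt1 load rings of Mcm2 to Mcm7 onto origins. In S phase Cdc45 and the GINS complex turn each loaded ring into an active helicase, and primase and the replicative polymerases copy the strands with the help of the sliding clamp and its loader. Many of the genes for these proteins are transcribed at the border of G1 and S phase under E2F transcription factors, and their transcripts fall when myoblasts leave the cell cycle.

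Promoter sequence is shown for 5 members because E2F sites are a known feature of the promoters of this gene group. The 8 letters of that site were searched in 4 forms (TTTCCCGC, TTTCGCGC, TTTGCCGC and TTTGGCGC) on both strands, with overlapping matches counted, in RefSeq promoter windows of GRCm38.p6 that run from 250 bases before to 50 bases after each start. At least 1 match was present for 14 of the 33 members with a window (42.4%), against 690 of 26992 other genes (2.56%). Of all 32851 windows, 744 held a match (2.26%). Gins1, Gins2, Gins4, Mcm4, Pole, Prim2, Rfc2 and Ccne2 had no window in the table. The matches of Mcm6, Mcm5, Pola1, Uhrf1 and Cdc6 lay before the start in sequence that holds no annotated exon, and all 5 are shown with 30 bases on each side, 5′ to 3′ on the strand of the gene, with the matching letters in capitals. The Mcm6 run is chr1:128359715-128359845 on the minus strand and the Mcm5 run chr8:75109326-75109397 on the plus strand, both upstream of the annotated gene. The Pola1 run, also upstream, is chrX:93632256-93632323 on the minus strand. The Uhrf1 run is chr17:56304098-56304165 and the Cdc6 run chr11:98907983-98908050, both on the plus strand and inside the annotated span of the gene, in an intron of a transcript that starts further upstream.
Mcm6: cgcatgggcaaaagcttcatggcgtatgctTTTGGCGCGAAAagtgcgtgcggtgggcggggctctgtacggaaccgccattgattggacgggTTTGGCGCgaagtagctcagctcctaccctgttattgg
Mcm5: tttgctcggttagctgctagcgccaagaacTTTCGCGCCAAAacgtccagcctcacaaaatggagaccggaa
Pola1: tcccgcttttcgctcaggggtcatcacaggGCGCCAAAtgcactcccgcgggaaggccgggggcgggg
Uhrf1: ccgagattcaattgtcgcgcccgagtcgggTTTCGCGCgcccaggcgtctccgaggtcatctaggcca
Cdc6: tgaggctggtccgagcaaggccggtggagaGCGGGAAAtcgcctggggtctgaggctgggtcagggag
The Mcm6 run holds 3 matches, 2 of which overlap on opposite strands, and the Mcm5 run holds 2 that overlap in the same way. Uhrf1 has a forward form, and Pola1 and Cdc6 have a reverse one. A match of letters is a description of the sequence, and binding was not measured.

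Sequencing depth ran from 13906096 counts (HA-NUR77 replicate 3) to 22821446 (HA-NUR77 replicate 2), and the members together took 0.0775% to 0.0870% of all counts in the HA-NUR77 libraries and 0.0646% to 0.0769% in the GFP libraries. Nr4a1 itself had 437, 445 and 355 reads in the HA-NUR77 libraries, in the order of their replicate numbers, and 327, 196 and 417 in the GFP libraries (edgeR adjusted p = 0.698). The species of the NUR77 insert was not given in the sources used here, so these reads do not check the labels. All 6 listed myoblast markers had enough reads to be tested, and Des was the most abundant (3004, 3162 and 3729 CPM in HA-NUR77 and 2040, 2570 and 2889 in GFP). Genes of myotubes were abundant as well, and their summed level was 19410 to 22500 CPM in HA-NUR77 and 12710 to 17650 in GFP. CPM here means counts scaled to a common library size (counts per 1000000 counts in tested genes, after TMM scaling), and values of a group are given in the order of the replicate numbers.

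Between the constructs, 6 of the 41 members rose in HA-NUR77 cells and 0 fell. The 6 were 3 subunits of the MCM ring (Mcm2, Mcm3 and Mcm4), 2 factors that activate it (Cdc45 and Gins3) and the catalytic subunit of primase (Prim1), and their fitted changes ran from 1.28-fold for Mcm4 to 1.57-fold for Gins3. The other 35 did not pass the threshold of 0.05 on the adjusted p (edgeR's quasi-likelihood test, Benjamini-Hochberg over all genes tested). The 6 are 14.6% of the members, beside 12.4% of all genes tested that were higher, 13.2% that were lower and 25.6% that were either, so the share of members called higher was near that of all genes. At an unadjusted p under 0.05, 15 members were higher and 0 lower, and DESeq2 and limma-voom also called 0 lower.

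Most members nonetheless had a positive difference that was small. The fitted log2 fold change was positive for 37 of 41 members (90.2%, beside 50.9% of all genes tested), with a median of 0.28 (all genes tested: 0.01). In 15 members (36.6%) every HA-NUR77 library was above every GFP library, beside 23.0% of all genes tested, and in 0 members was every HA-NUR77 library below, beside 22.5%. Those 15 were Cdc6, Mcm2, Mcm3, Mcm4, Cdc45, Gins2, Gins3, Gins4, Pola2, Prim1, Pold1, Pcna, Rfc2, Rfc4 and Uhrf1. When each replicate was left out, the median difference ran from 0.22 without GFP replicate 3 to 0.43 without GFP replicate 2. In bulk RNA, more cells in S phase and more of each transcript per cell cannot be told apart.

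**Figure D1:**
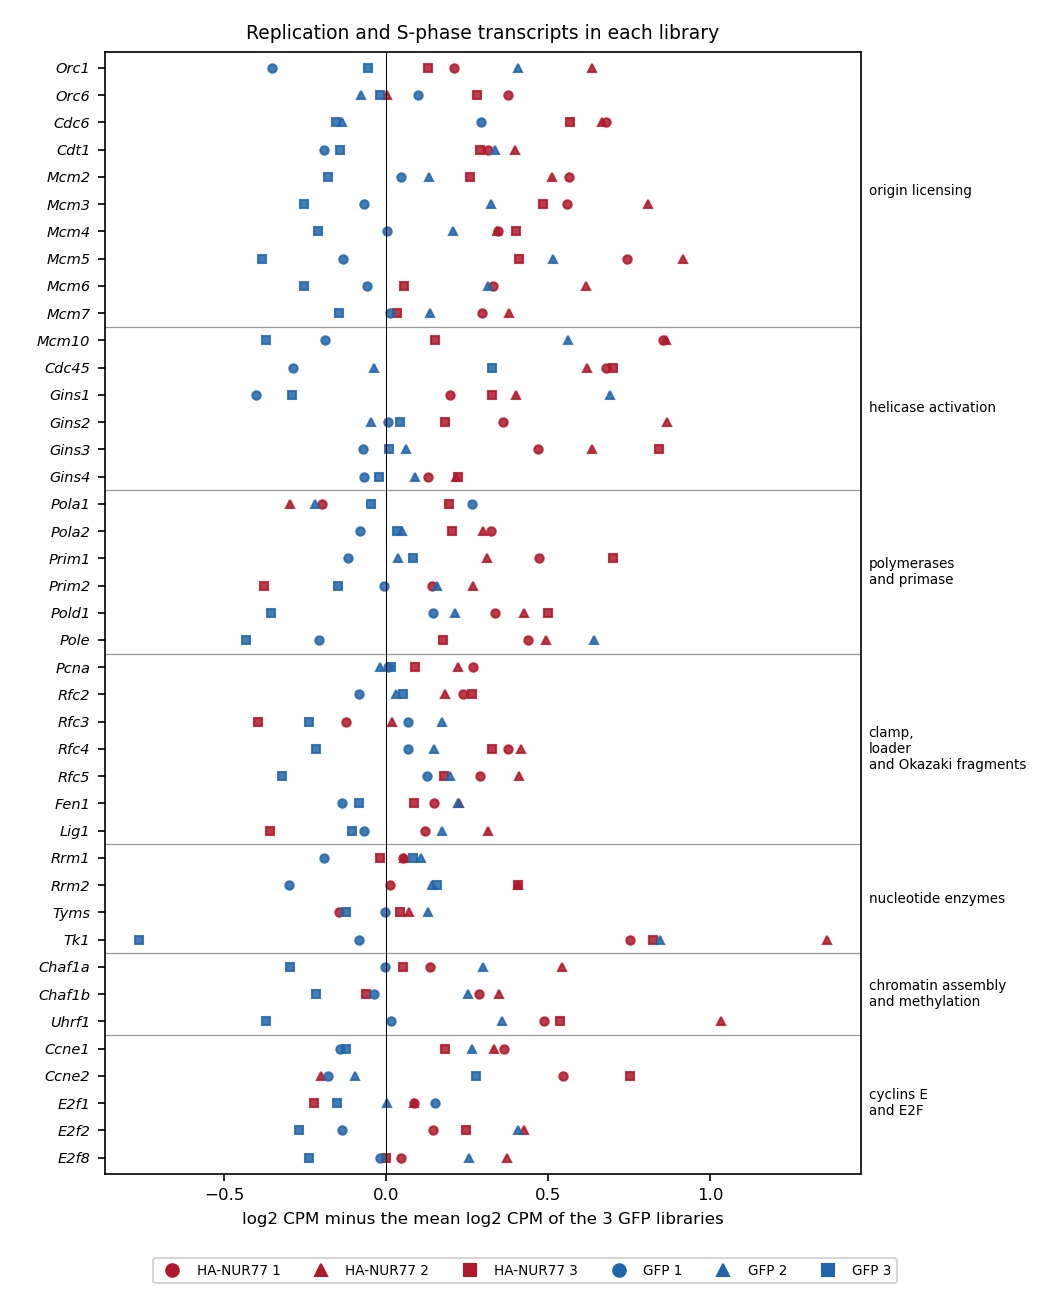
Level of each of the 41 members in each library, as log2 CPM minus the mean log2 CPM of the 3 GFP libraries (red, HA-NUR77; blue, GFP; circle, triangle and square, replicate numbers 1, 2 and 3), with genes grouped by role. The groups are apart in 15 members, and the triangles of number 2 are often to the right within both colours.

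Same-numbered libraries of the 2 groups deviated together from their group means over all genes, so the comparison was also fitted with the replicate number as a block. With it, 21 of the 41 members were higher (51.2%, beside 23.5% of all genes tested) and 0 were lower (beside 24.6%). The block added Cdc6, Mcm5, Mcm6, Mcm7, Mcm10, Gins2, Pola2, Pold1, Pcna, Rfc2, Rfc4, Rrm2, Tk1, Uhrf1 and E2f2 to the 6. The pairing was found in these data and is not stated in the labels, and this fit has 2 residual degrees of freedom in place of 4. Without the block, 3 members lay just outside the threshold, namely Cdc6 (adjusted p = 0.0504), Uhrf1 (0.0529) and Pola2 (0.0539), and Mcm4 (0.0488) lay just inside it.

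**Figure D2:**
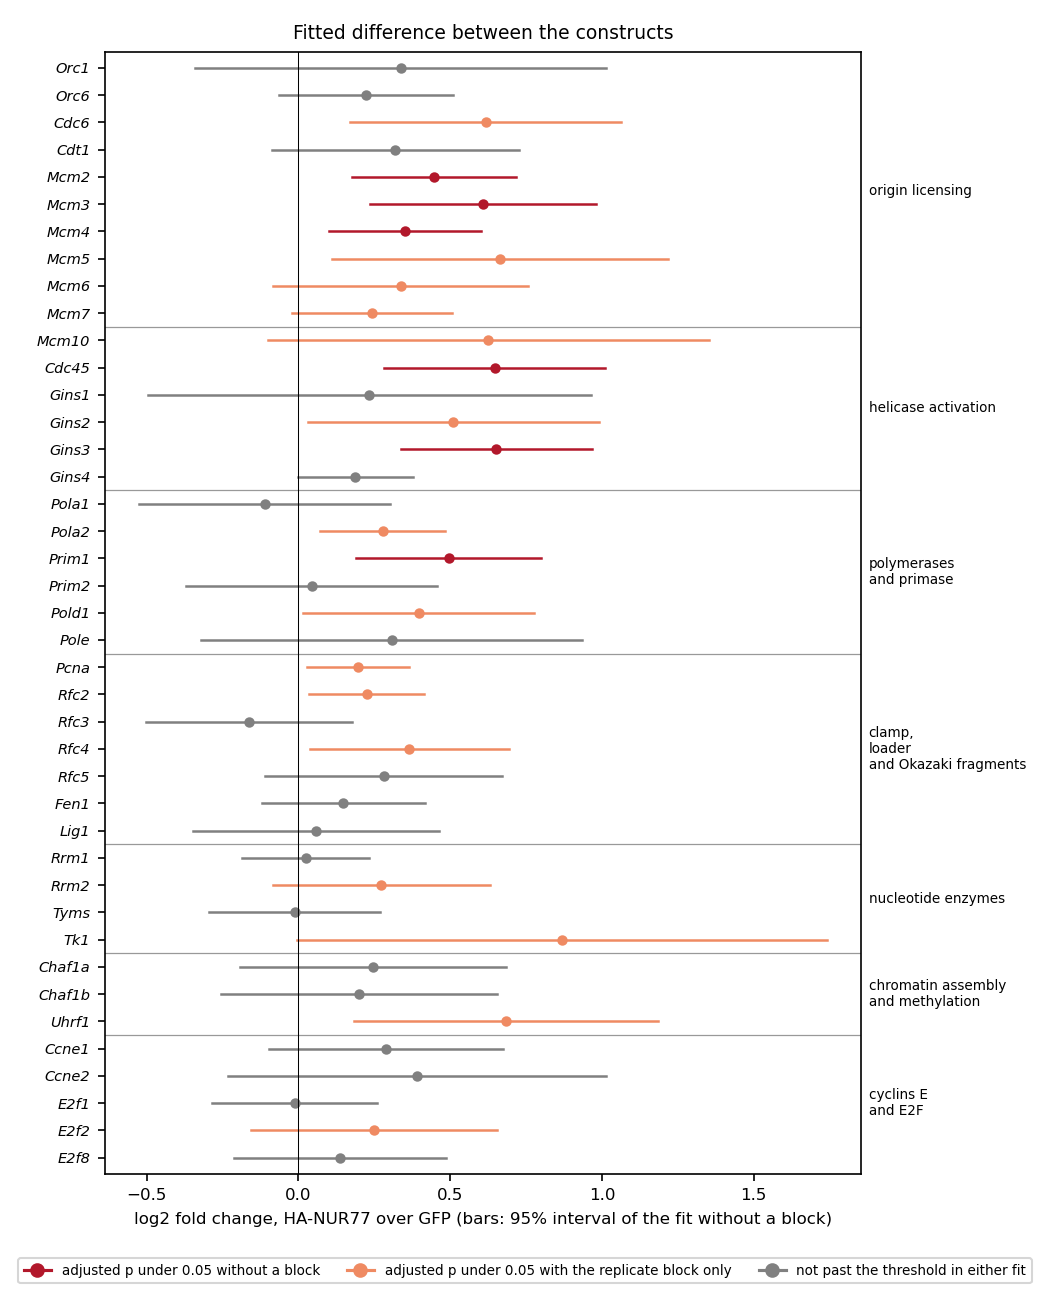
Fitted log2 fold change of HA-NUR77 over GFP for each member, with the 95% interval of the fit without a block (bars). Dark red marks the 6 members past an adjusted p of 0.05 in that fit, orange the 15 past it with the replicate block only, and grey the rest.

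Origin licensing had 3 of 10 members higher, beside 12.4% of all genes tested. The difference was positive in 10 of 10, beside 50.9% of all genes tested, and the median log2 fold change of these members was 0.34. Mcm3, a subunit of the MCM ring (chromosome 1, 20802968 to 20820312, minus strand), was at 20.8, 24.7 and 19.8 CPM in HA-NUR77 and at 13.5, 17.7 and 11.8 CPM in GFP. The lowest HA-NUR77 library was above the highest GFP library, and the fitted change was 1.52-fold (log2 0.61, SE 0.16, edgeR adjusted p = 0.0297). Mcm2, another subunit (chromosome 6, 88883474 to 88898780, minus strand), was at 29.5, 28.4 and 23.8 CPM against 20.6, 21.8 and 17.6 CPM. Its groups did not overlap either, with replicate 3 the lowest of each (log2 0.45, SE 0.12, adjusted p = 0.0280). Mcm4 (chromosome 16, 15623897 to 15637400, minus strand) was at 32.7, 32.7 and 34.0 CPM against 25.8, 29.7 and 22.3 CPM. The HA-NUR77 libraries were close to one another and the GFP libraries were spread below them (log2 0.35, SE 0.11, adjusted p = 0.0488).

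The other MCM subunits were not called without the block. Mcm6 had the highest count per kilobase of exon among the licensing genes, 9.61 CPM per kilobase in HA-NUR77 and 7.63 in GFP. It lies on chromosome 1, 128331590 to 128359664, minus strand, and was at 44.2, 53.8 and 36.5 CPM in HA-NUR77 and at 33.7, 43.7 and 29.4 CPM in GFP. Its groups overlapped, since GFP replicate 2 was above HA-NUR77 replicate 3, although each HA-NUR77 library was above the GFP library of the same number. The log2 fold change was 0.34 (SE 0.18, edgeR adjusted p = 0.200, and 0.00113 with the block). Mcm5 (chromosome 8, 75109569 to 75128439, plus strand) showed the same arrangement, at 14.5, 16.3 and 11.5 CPM against 7.89, 12.4 and 6.63 CPM (log2 0.66, SE 0.24, adjusted p = 0.0760, and 0.000561 with the block). Mcm7 had a log2 fold change of 0.24 (adjusted p = 0.152, and 0.0131 with the block), and its exons overlap those of Ap4m1 and Cops6 on the other strand. Per kilobase the 6 ring subunits, which form a ring with 1 copy of each, were not at one level. The length used here is that of all annotated exons of a gene, merged over its transcripts. Ranks between genes therefore also depend on the annotation. In HA-NUR77 Mcm6, Mcm4 and Mcm7 had means of 8.05 to 9.61 CPM per kilobase. The libraries of Mcm6 overlapped those of Mcm4 and of Mcm7, while every Mcm4 library was above every Mcm7 library. Mcm3 was at 5.80, and Mcm2 and Mcm5, whose libraries overlapped, were at 3.92 and 3.53. The GFP means had the same order, from 7.63 for Mcm6 to 2.24 for Mcm5.

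The genes that load the ring were at lower levels, apart from Orc6. Cdc6, an ATPase that recruits the ring to origins, was at 3.26, 3.23 and 3.02 CPM in HA-NUR77 and 2.49, 1.85 and 1.83 CPM in GFP. The groups did not overlap, but the log2 fold change of 0.62 (SE 0.19) missed the threshold, as given above, and had an adjusted p of 0.0202 with the block. Cdt1, which brings the ring to the origin with Cdc6, and Orc1, the largest subunit of the origin recognition complex, had log2 fold changes of 0.32 (SE 0.18) and 0.34 (SE 0.29) and did not pass in either fit. Orc6, a small subunit of that complex whose exons overlap those of Vps35 on the other strand, was at 0.22 (SE 0.12) and did not pass either.

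Helicase activation had 2 of 6 members higher (33.3%, beside 12.4% of all genes tested) and the largest median of the roles (log2 0.57). In 4 of 6 the HA-NUR77 libraries lay above all GFP libraries (66.7%, beside 23.0% of all genes tested). No role was tested as a set. Gins3, a subunit of the GINS complex (chromosome 8, 95633453 to 95645060, plus strand), was at 8.38, 9.39 and 10.8 CPM in HA-NUR77 and 5.75, 6.32 and 6.09 CPM in GFP. The 3 GFP libraries lay close together, and all HA-NUR77 libraries were above them (1.57-fold, log2 0.65, SE 0.14, edgeR adjusted p = 0.0136). Cdc45, the helicase's partner protein (chromosome 16, 18780447 to 18811987, minus strand), was at 12.9, 12.4 and 13.1 CPM against 6.58, 7.83 and 10.1 CPM. The HA-NUR77 libraries agreed closely and the GFP libraries were spread, with replicate 3 nearest to HA-NUR77 (1.57-fold, log2 0.65, SE 0.16, adjusted p = 0.0223). Exons of Cdc45 overlap those of Ufd1 on the other strand, and since the strand setting of the counting was not given, reads of such pairs cannot be told apart.

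The GINS subunits also form a complex of 1 copy each, and their levels differed widely. Gins4 had the highest count per kilobase of the helicase activation genes, 16.0 CPM per kilobase in HA-NUR77 and 14.1 in GFP, while Gins1 had 1.22 and 1.04. Gins4 was at 20.7, 22.0 and 22.1 CPM in HA-NUR77 and 18.1, 20.2 and 18.7 CPM in GFP. The groups did not overlap, but the difference was small (log2 0.19, SE 0.08, adjusted p = 0.127, and 0.0659 with the block). Gins2 and Mcm10, a scaffold of the starting helicase, had log2 fold changes of 0.51 (SE 0.21) and 0.63 (SE 0.31) and passed with the block only, at adjusted p of 0.0382 and 0.0460. Gins2 shares exon sequence with Gse1 on the other strand. Gins1 had a log2 fold change of 0.23 with a wide interval, from -0.50 to 0.96.

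**Figure D3:**
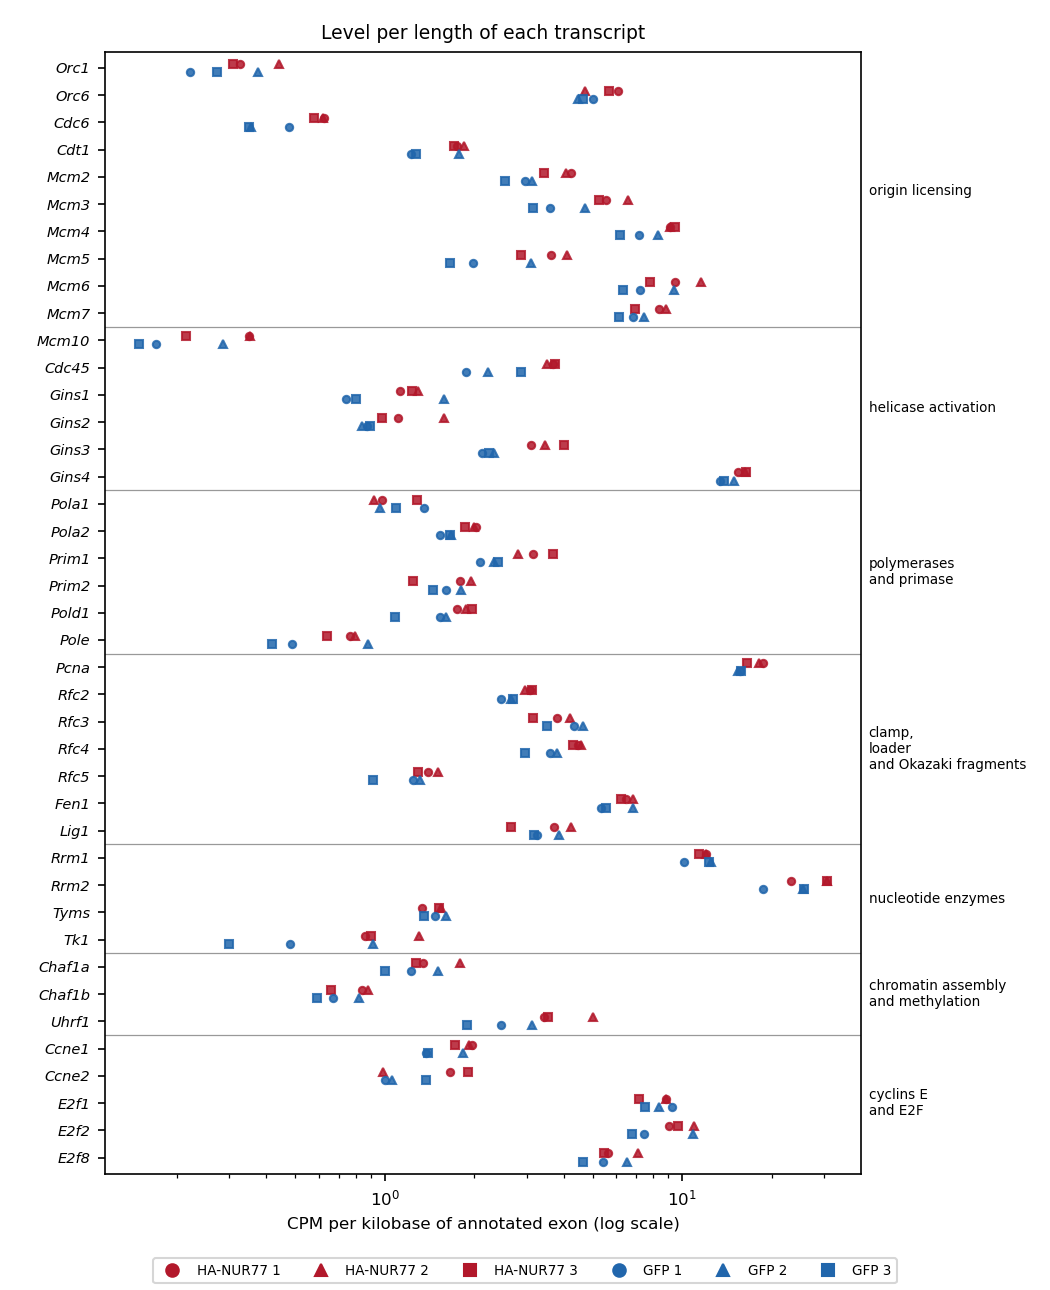
CPM per kilobase of annotated exon for each member in each library, on a log scale (red, HA-NUR77; blue, GFP; circle, triangle and square, replicate numbers 1, 2 and 3). Gins4, Pcna, Rrm1 and Rrm2 stand highest, and Mcm10, Orc1 and Cdc6 lowest.

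Among the polymerases and primase 1 of 6 members rose (16.7%, beside 12.4% of all genes tested). Prim1, the catalytic subunit of primase (chromosome 10, 128015168 to 128030037, plus strand), had the highest count per kilobase of this role and was at 12.2, 10.9 and 14.2 CPM in HA-NUR77 and 8.07, 9.0 and 9.27 CPM in GFP. The groups did not overlap (1.41-fold, SE of the log2 value 0.13, edgeR adjusted p = 0.0296). Prim2, the other primase subunit, was nearly level (log2 0.04, interval -0.37 to 0.46). The B subunit of polymerase alpha, Pola2, had a log2 fold change of 0.28 (SE 0.09), and its catalytic subunit Pola1 had -0.11 (SE 0.18). Pold1 and Pole, the catalytic subunits of polymerases delta and epsilon, had log2 fold changes of 0.40 (SE 0.16) and 0.31 (SE 0.27). Pola2 and Pold1 passed with the block (adjusted p = 0.0230 and 0.0411), and Pole, which shares exon sequence with the antisense gene Gm15792, did not (0.133).

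Of the 7 genes of the clamp, its loader and Okazaki fragment processing, 0 passed without the block, beside 3 at an unadjusted p under 0.05. With the block 3 were higher (42.9%, beside 23.5% of all genes tested). Pcna, the sliding clamp, had the highest count per kilobase of these genes, 17.8 CPM per kilobase in HA-NUR77 and 15.6 in GFP. It was at 45.0, 43.6 and 39.8 CPM in HA-NUR77 and 37.6, 36.9 and 37.8 CPM in GFP. All HA-NUR77 libraries were above the GFP libraries, by little (log2 0.20, SE 0.07, edgeR adjusted p = 0.0840, and 0.0314 with the block). The annotation also holds the pseudogenes Pcna-ps1 and Pcna-ps2, so its count may be incomplete. The loader genes Rfc2, Rfc4 and Rfc5 had log2 fold changes of 0.23, 0.37 and 0.28, of which Rfc2 and Rfc4 passed with the block (adjusted p = 0.0377 and 0.0444). Rfc3 had the most negative value of all members, -0.16 (SE 0.15), and each of its HA-NUR77 libraries was below the GFP library of the same number. Fen1, the flap endonuclease, and Lig1, the ligase of Okazaki fragments, were at 0.15 (SE 0.12) and 0.06 (SE 0.17) and passed in neither fit. The exons of Rfc2, Rfc4, Rfc5, Fen1 and Lig1 overlap those of Lat2, Eif4a2, Wsb2, Tmem258 and Zswim9 on the other strand, in that order.

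Among the nucleotide enzymes 0 of 4 members passed without the block, and 0 had an unadjusted p under 0.05. Rrm2, the regulated subunit of ribonucleotide reductase (chromosome 12, 24708241 to 24714146, plus strand), had the highest count per kilobase of all 41 members, 28.2 in HA-NUR77 and 23.3 in GFP. It was at 64.6, 84.9 and 84.9 CPM in HA-NUR77 and 52.0, 70.7 and 71.4 CPM in GFP. Replicate 1 was the lowest of each group, and HA-NUR77 replicate 1 lay below GFP replicates 2 and 3 (log2 0.27, SE 0.15, edgeR adjusted p = 0.221, and 0.00170 with the block). Rrm1, the large subunit, was nearly level (log2 0.02, SE 0.09), and so was Tyms, thymidylate synthase (-0.01, SE 0.12). The mean CPM of Rrm1 was above that of Rrm2 (130 against 78.1 in HA-NUR77). Per kilobase Rrm1 ranked lower, over 11012 bases of annotated exon against 2771 for Rrm2. Tk1, cytosolic thymidine kinase, had the largest fitted difference of the members, 1.83-fold, with the widest spread. It was at 4.45, 6.77 and 4.67 CPM in HA-NUR77 and 2.49, 4.74 and 1.56 CPM in GFP, so that GFP replicate 2 was above HA-NUR77 replicates 1 and 3 (log2 0.87, SE 0.37, adjusted p = 0.125, and 0.00353 with the block). Its exons overlap those of Afmid on the other strand, and Tyms has an annotated pseudogene, Tyms-ps.

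Among the genes of chromatin assembly and methylation 0 of 3 members passed without the block. Uhrf1, which recruits the maintenance methyltransferase to newly copied DNA (chromosome 17, 56303321 to 56323486, plus strand), had the highest count per kilobase of them. It was at 14.6, 21.3 and 15.1 CPM in HA-NUR77 and 10.5, 13.3 and 8.05 CPM in GFP. The groups did not overlap, and number 2 was the highest of each (1.61-fold, log2 0.68, SE 0.21, adjusted p as given above, and 0.000205 with the block). Chaf1a and Chaf1b, subunits of the histone chaperone CAF-1, had log2 fold changes of 0.25 (SE 0.19) and 0.20 (SE 0.20) and passed in neither fit. Exons of Chaf1a overlap those of Ubxn6 on the other strand.

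Of the cyclins E and the E2F genes, 0 of 5 passed without the block and 0 had an unadjusted p under 0.05. E2f2, an activating E2F (chromosome 4, 136172394 to 136196057, plus strand), had the highest count per kilobase of this role and was at 44.2, 53.7 and 47.5 CPM in HA-NUR77 and 36.4, 53.0 and 33.2 CPM in GFP. GFP replicate 2 lay among the HA-NUR77 libraries and the other GFP libraries lay below them (log2 0.25, SE 0.17, edgeR adjusted p = 0.317, and 0.0318 with the block). E2f1, another activator, was level (log2 -0.01, interval -0.28 to 0.26), and E2f8, a repressor, had 0.14 (SE 0.15). Ccne1 and Ccne2, the cyclins that drive entry into S phase, had log2 fold changes of 0.29 (SE 0.17) and 0.39 (SE 0.27) and passed in neither fit. Ccne2 shares exon sequence with Ints8 on the other strand, and E2f8 with the transcript Gm2788.

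Single libraries decided how many members passed between the constructs. Without HA-NUR77 replicate 1, 2 or 3 there were 1, 3 and 3 members higher (2.44%, 7.32% and 7.32%), beside 5.33%, 9.96% and 8.21% of all genes tested in the same fits. Without GFP replicate 1, 2 or 3 there were 0, 9 and 3 (0%, 22.0% and 7.32%), beside 5.09%, 7.27% and 11.7% of all genes. The fitted log2 fold changes stayed positive in these fits, from 0.55 to 0.74 for Gins3, 0.51 to 0.82 for Cdc45, 0.49 to 0.78 for Mcm3, 0.36 to 0.53 for Mcm2, 0.39 to 0.59 for Prim1 and 0.25 to 0.46 for Mcm4. Gins3 was called in each of these fits except that without GFP replicate 1 (adjusted p = 0.0565). Mcm2 and Mcm3 missed the threshold without HA-NUR77 replicate 1 or 2 or GFP replicate 1 or 3, with adjusted p up to 0.103 and 0.109. Cdc45 and Prim1 missed it without HA-NUR77 replicate 1 or 3 or GFP replicate 1 or 2, with adjusted p up to 0.0715 and 0.107. Mcm4 passed only without GFP replicate 2, and it reached 0.135 in the others. Without both libraries of number 2, 6 members were called, E2f2, Mcm3, Mcm4, Mcm5, Tk1 and Uhrf1, of which 2 were among the original 6. They are 14.6% of the members, beside 5.5% of all genes tested that were higher in that fit, where Cdc45, Gins3 and Prim1 had log2 fold changes of 0.64, 0.69 and 0.60.

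Between replicate numbers, 9 of the 41 members differed (22.0%, beside 16.3% of all genes tested; edgeR's test of both number terms with the construct in the model). In 8 of the 9 (19.5% of the members, beside 6.04% of all genes tested) number 2 was fitted above numbers 1 and 3. These were Mcm3, Mcm5 and Mcm6 of the licensing genes, Tk1, Uhrf1, Chaf1a, E2f2 and E2f8, and the ninth was Rrm2. A further 8 members had an unadjusted p under 0.05, for a total of 17. The labels give the numbers without a day or a batch, and this test uses the same libraries in which the pairing was found.

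Mcm6 had the smallest p of the members between numbers (edgeR adjusted p = 0.00229). Its values, given above, put replicate 2 highest and replicate 3 lowest in both groups, and the fitted log2 difference was 0.33 for number 2 over 1 and -0.56 for number 3 over 2. Rrm2 followed (adjusted p = 0.00272) with another arrangement. Numbers 2 and 3 were level with each other (log2 0.01, SE 0.07), and number 2 was above number 1 by 0.42 (SE 0.07). For Uhrf1 the difference was 0.46 for number 2 over 1 and -0.59 for number 3 over 2 (adjusted p = 0.0127). E2f8 (chromosome 7, 48866429 to 48881596, minus strand) was at 30.8, 38.6 and 29.8 CPM in HA-NUR77 and 29.4, 35.6 and 25.3 CPM in GFP. Replicate 2 was the highest of each group, while the constructs overlapped (number 2 over 1, log2 0.30, SE 0.09, adjusted p = 0.0130).

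Mcm5 and Mcm3, both subunits of the ring, had log2 differences of 0.37 and 0.31 for number 2 over 1 and -0.67 and -0.43 for number 3 over 2 (edgeR adjusted p = 0.0189 and 0.0289). Chaf1a (chromosome 17, 56040439 to 56072289, plus strand) was at 11.9, 15.9 and 11.3 CPM in HA-NUR77 and 10.9, 13.4 and 8.86 CPM in GFP. Again replicate 2 was the highest of each group (log2 0.36 for number 2 over 1, SE 0.11, adjusted p = 0.0205). E2f2 and Tk1 differed by 0.41 and 0.73 for number 2 over 1 (adjusted p = 0.0300 and 0.0349). Over all 41 members the median was 0.15 for number 2 over 1, -0.11 for 3 over 1 and -0.27 for 3 over 2, beside 0.0049, -0.00065 and 0.0049 over all genes tested. Not every member had number 2 highest, and Ccne2, Orc6, Pola1 and Prim1 were fitted lowest in it, with log2 values for number 2 over 1 of -0.40, -0.28, -0.30 and -0.03, none of them called.

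**Figure D4:**
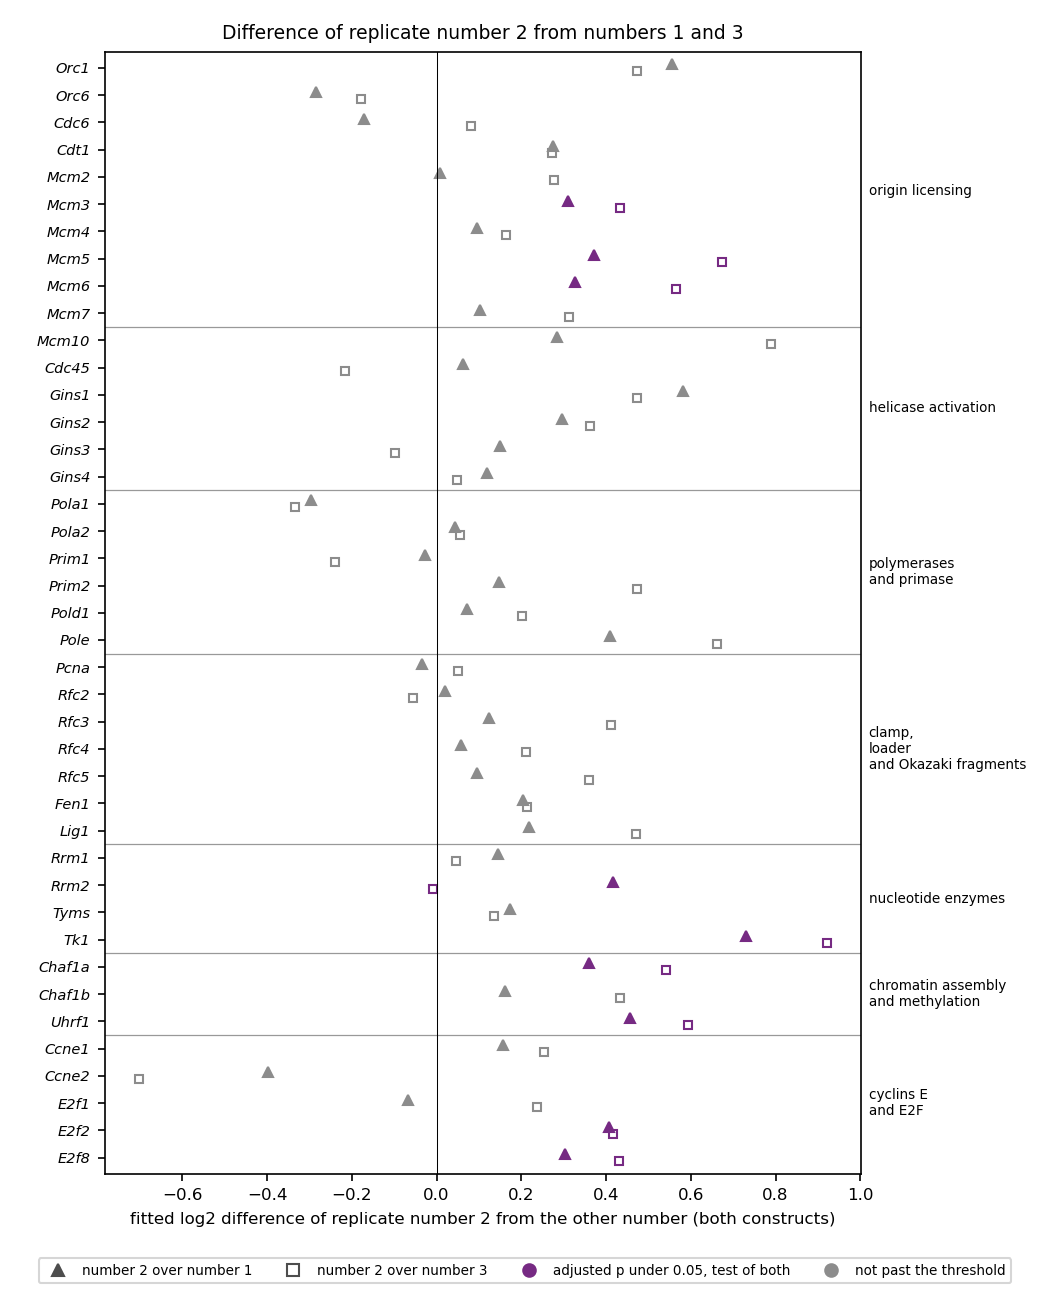
Fitted log2 difference of replicate number 2 from number 1 (filled triangles) and from number 3 (open squares) for each member, over both constructs; purple marks the 9 members with an adjusted p under 0.05 in the test of both terms. Most points lie to the right of 0, where number 2 is higher.

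The number result also rested on single libraries and on the tool. Members called numbered 2 without GFP replicate 2 (4.88%, beside 9.80% of all genes tested in that fit), and 14 and 5 when HA-NUR77 replicate 1 or 2 was left out (34.1% and 12.2%, beside 20.6% and 4.69%). DESeq2's likelihood ratio test called 3 members (7.32%, beside 9.16%).

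Genes of mitosis were set beside the members because they mark a later phase of the cell cycle. Of 21 listed mitosis genes, 0 were higher or lower between the constructs, and 1 had an unadjusted p under 0.05. With the block 6 were higher (28.6%, beside 23.5% of all genes tested) and 1 lower (beside 24.6%). Their fitted differences were nonetheless mostly positive, in 16 of 21 (76.2%, beside 90.2% of the members and 50.9% of all genes tested). Their median log2 fold change was 0.32, beside 0.28 for the members. Between replicate numbers 17 of the 21 differed (81.0%), all 17 with number 2 highest, and the medians were 1.2 for number 2 over 1 and -1.14 for 3 over 2. Top2a, the topoisomerase of chromosome segregation and the most abundant of them, was at 35.9, 62.1 and 46.7 CPM in HA-NUR77 and 30.6, 68.8 and 26.0 CPM in GFP. On the log2 scale and with the GFP mean subtracted, the median level of the mitosis genes was -0.05, 1.10 and 0.29 in HA-NUR77 and -0.32, 0.93 and -0.63 in GFP. The same median over the 41 members was 0.29, 0.37 and 0.20 against -0.07, 0.17 and -0.14. Both lists were thus highest in replicate 2 of each group, the mitosis genes by a wide margin. The medians of the members did not overlap between the constructs, as in the list of other replication genes (0.15 to 0.16 in HA-NUR77 and -0.06 to 0.05 in GFP), and those of the mitosis genes did. The difference between the lists was not tested.

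**Figure D5:**
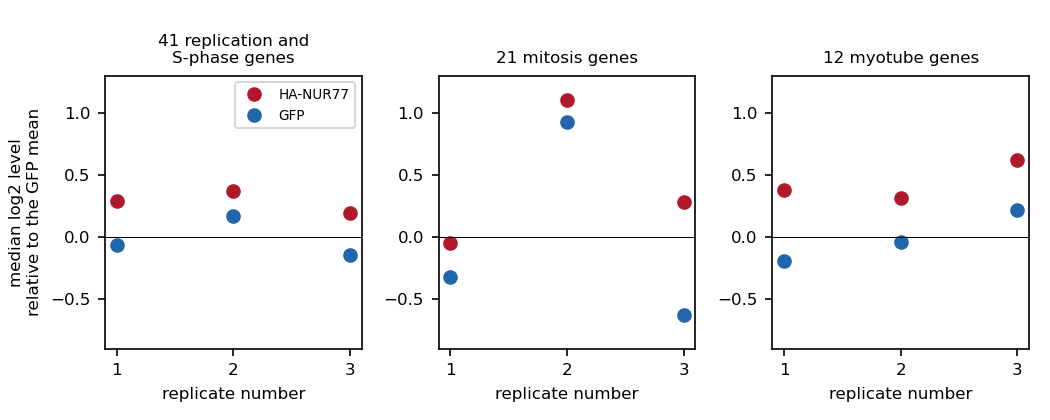
Median log2 level of 3 gene lists in each library, relative to the GFP mean, against replicate number (red, HA-NUR77; blue, GFP). The members range from -0.14 to 0.37 with all red points above the blue ones, and the mitosis genes reach 1.10 and 0.93 in number 2.

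Other genes of replication that are not members were followed in a list of 68. Of these, 12 rose (17.6%, beside 12.4% of all genes tested) between the constructs, 2 fell (beside 13.2%) and 54 did not pass. With the block 24 were higher (35.3%, beside 23.5% of all genes tested) and 5 lower (beside 24.6%). Between numbers 7 differed (10.3%, beside 16.3% of all genes tested). The rises were mostly at the fork, where 7 of 24 were higher (29.2%). Pold2, the B subunit of polymerase delta, was at 22.7, 22.4 and 22.9 CPM in HA-NUR77 and 17.5, 17.5 and 15.6 CPM in GFP, with no overlap (log2 0.42, SE 0.08, edgeR adjusted p = 0.0106). Rpa2 and Rpa1, subunits of the protein that coats single-stranded DNA, had log2 fold changes of 0.57 and 0.32 (adjusted p = 0.0115 and 0.0160). Rpa3, Pole3, Pole4 and Timeless were the other fork genes that rose. The falls were E2f3, an E2F factor, from 40.5, 38.0 and 38.0 CPM in GFP to 28.4, 31.1 and 28.7 CPM in HA-NUR77 (log2 -0.40, SE 0.07, adjusted p = 0.00868), and Supt16, a histone chaperone subunit (-0.27, SE 0.08, adjusted p = 0.0430). Of 15 further licensing and firing genes 1 rose, Gmnn, the inhibitor of Cdt1 (log2 0.85). The remaining rises were Dck of nucleotide supply, Asf1a and Asf1b of chromatin behind the fork, and E2f6. The number higher was 6 and 5 when HA-NUR77 replicate 1 or 3 was left out and 3 without GFP replicate 1, and without both number 2 libraries it was 7.

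Upstream of the members, 4 of the 9 tested G1 kinases, cyclins and inhibitors rose (44.4%, beside 12.4% of all genes tested) and 0 fell. With the block 5 were higher (55.6%, beside 23.5% of all genes tested) and 2 lower (beside 24.6%). The 2 lower were Cdk4 and Cdkn1a (log2 -0.16 and -0.22, edgeR adjusted p = 0.0333 and 0.0331). Ccnd1, a D-type cyclin that acts before the E2F step, was at 23.3, 30.7 and 17.1 CPM in HA-NUR77 and 7.36, 7.55 and 4.94 CPM in GFP (log2 1.84, SE 0.25, edgeR adjusted p = 0.00268). Ccnd2, another D-type cyclin, was at 32.1, 34.2 and 25.9 CPM against 18.0, 21.4 and 16.4 CPM (log2 0.73, adjusted p = 0.00999). Neither had overlapping groups, and the other rises were Cdk6, a partner kinase, and Cdkn2d, an inhibitor of it. The most abundant gene of this list, the inhibitor Cdkn1a, was at 741, 1087 and 837 CPM in HA-NUR77 and 844, 1110 and 1134 CPM in GFP (adjusted p = 0.384).

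Members with E2F letters in their promoter window were set beside members without. Of the members with a window, the 14 with a match had a median log2 fold change of 0.34 between the constructs and the 19 without a match had 0.27. For number 3 over 2 the medians were -0.41 and -0.21. A match was held by 2 of the 5 members called higher between the constructs that have a window (40.0%). It was held by 5 of the 9 that differed between numbers (55.6%). Over all 33 members with a window the share was 42.4%. The ranges overlapped widely, from -0.16 to 0.68 and from -0.01 to 0.87 for the constructs, and no difference between the sets was tested.

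Muscle markers were followed in lists for myoblasts and myotubes. Of 6 myoblast markers 2 rose, Cdh15 and Itga7, 0 fell and 4 did not pass. With the block 4 were higher (66.7%, beside 23.5% of all genes tested) and 1 lower, Myf5 (beside 24.6%). Myf5 and Pax7, markers of early muscle precursors, had negative log2 fold changes of -0.23 and -0.28. Of 12 myotube markers 3 rose, Myh3, Myh8 and Tnnc2, 0 fell and 9 did not pass, with the summed levels given above. With the block 10 were higher (83.3%, beside the same 23.5%) and 0 lower. Without the block the shares of the 2 lists that rose were 33.3% and 25.0%, beside 12.4% of all genes tested. Acta1, skeletal muscle actin and the most abundant of the myotube genes, was at 4875, 5425 and 5847 CPM against 3131, 3625 and 4698 CPM, with no overlap (edgeR adjusted p = 0.0583). Between numbers 9 of the 12 myotube markers differed (75.0%, beside 16.3% of all genes tested). Only 1 of the 12 differed with number 2 above numbers 1 and 3 (8.33%, beside 6.04% of all genes tested). The part of these marker levels in the members' differences was not tested. Macrophage markers had few reads, and of 2 tested Csf1r was higher. Below the filter, Ptprc had 1 read in each library and Adgre1 1 read in all. Itgam had 31 reads in HA-NUR77 and 44 in GFP, and Lyz2 had 26 and 12. Of the 3 fibroblast markers tested, Pdgfra and Pi16 were lower in HA-NUR77 cells, and Dcn, the most abundant, was at 325 to 490 CPM and 312 to 404 CPM. Lum (8 reads in HA-NUR77 and 1 in GFP) and Thy1 (0 reads) were below the filter.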

How the data were processed

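Each library's file, as deposited, holds raw counts of reads per Ensembl gene. Per the labels' protocols, 1000 ng of RNA entered a stranded poly(A) kit with 12 PCR cycles, and per the submitters' processing notes TopHat2 2.1, HTSeq, DESeq2 and mm10 were used. The sources used here do not give the annotation release, the strand setting or what DESeq2 was used for. GENCODE M21 (GRCm38) gave symbols for 22888 of 23154 IDs. No row was a summary line.

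Groups and replicate numbers came from the labels. The main test was edgeR 4.0.16 in R 4.3.3, quasi-likelihood with TMM factors, robust fitting and a single term for the construct, on the 12509 genes that filterByExpr kept (minimum count 10), with Benjamini-Hochberg adjustment and a threshold of 0.05. CPM divides counts by the library's counts in tested genes and its TMM factor. Levels relative to the GFP mean add 0.5 to CPM, except in the plot of members by library. Counts per kilobase divide CPM by the merged length of all annotated exons of a gene, so ranks between genes depend on the annotation. Counting alone limits the precision of genes with few reads. Chi-square per degree of freedom between libraries of a group was at least 11.4, so each library counts as 1 replicate.

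The members and lists were chosen with earlier results of these data known. Values in every library are given for members past the threshold, for the member with the highest count per kilobase in each role, and for the 8 smallest p between numbers. Of the other replication genes, up to 3 per direction with the smallest p are described, and of each other list the most abundant gene and up to 2 called. Values of Cdc6 and Tk1 and the names of further genes were added after they were seen.

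Deviations of same-numbered libraries from their group means (log2 CPM, prior count 2) correlated at 0.25, 0.55 and 0.47 for numbers 1, 2 and 3, each over the minimum of 0.1, so the numbers were taken to pair the libraries. Differently numbered pairs correlated at -0.44 to -0.05 over all genes. Over the members alone, same-numbered pairs were at 0.13, 0.57 and 0.49, and HA-NUR77 replicate 1 was at 0.15 with GFP replicate 3. Number 1 was thus not matched best within the members. The pairing comes from the data, and the labels name no shared day. DESeq2 1.42.0, limma 3.58.1 (voom), other scalings and filters, offsets for gene length and GC content, the block and fits without each library were tried. The fit without both number 2 libraries was chosen after seeing the data.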

Additional observations from a re-analysis of the deposited data

How the results depend on the processing

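With 3 libraries per construct, counts of calls depended on the settings more than directions did. Named members here are those chosen for values in every library by the rules above, before Cdc6 and Tk1 were added. None of them changed direction in any alternative, and in every fit 0 members were called lower. Of the other members, Lig1, Rrm1, Prim2, Pola1, Tyms and E2f1 changed sign in some fits. Lig1, at 0.06 in the main fit, was at -0.09 without HA-NUR77 replicate 2, and Pola1, at -0.11, was at 0.06 with length and GC offsets. Over all combinations of named member and alternative, the side of the threshold between the constructs was the same in 205. Calls were gained in 22 and lost in 28. The 6 members higher became 21 with the replicate block (51.2%, beside 23.5% of all genes tested). They became 22 with length and GC offsets and the block (53.7%, beside 25.9%). When each replicate was left out they were 0 to 9, with the shares given above. The median log2 fold change of all 41 members ran from 0.22 to 0.43 over the fits without 1 replicate, the highest without GFP replicate 2. Of the other replication genes, 12 were higher and 2 lower. The number higher was 24 with the block, 27 with the offsets and the block, 7 without both number 2 libraries and 3 to 9 without each replicate. The number lower was 5 with the block, 5 with the offsets and the block, and 1 with library totals only, with upper-quartile factors or without both number 2 libraries. It was 1 to 2 without each replicate. The 9 members that differed between numbers became 3 with DESeq2 and 2 to 14 without each replicate. With no filter on low counts they became 16 (39.0%, beside 15.3% of all genes in that fit). Between numbers, calls for named members were the same in 92 such combinations and lost in 20. The causes were not tested. The blocked fit also changed the calls of 15 members named beside it. Counting limits the precision of Orc1, Gins1 and Mcm10, which had 118, 176 and 208 reads over the 6 libraries.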
